A study of Mus musculus with 6 samples.

Results

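The genes described here are Snap25, Chgb, Barhl1, Xkr4, Xkr7, Vstm2l, Cdh4, Lin28a, Dab1 and Csmd2, 10 of the 21938 protein-coding genes of the mouse annotation used. They were chosen by the peak lists themselves, as genes of mostly neuronal function that carry a Gli3 peak resembling a REST site, so that what follows on their peaks is a description and not a test. Every peak whose midpoint fell within 100 kb of the gene body was collected, with a wider window of 300 kb for Cdh4. The question asked was whether Gli3 binding at these genes was confined to the mandibular prominence (MNP), the part of the embryonic face that forms the lower jaw and tongue.

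The data are ChIP-seq peak lists from CD1 mouse embryos at embryonic day 11.5, made with an antibody against the FLAG tag. Embryos of the genotype Gli3 3XFlagbio gave 2 whole face samples and 2 MNP samples, and embryos labelled with the genotype Hand2 3XFlagbio gave 2 MNP samples. Per the study's text the whole face includes the mandibular prominence, so that the whole face samples hold MNP tissue together with that of the upper face, and a peak listed for the MNP alone is one that the list of the larger tissue lacks. In both genotypes the tag sits on the endogenous gene, the tissue of several embryos was pooled, and chromatin of wild-type tissue served as the mock. The replicates of each group had been merged into 1 list, with 5427 peaks for Gli3 in the MNP, 5752 for Gli3 in the whole face and 59583 for Hand2 in the MNP. The lists hold positions only. Depth and peak height are unknown, no spread between embryos can be given, and the shares below carry a 95% Wilson interval that covers counting error only.

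Gli3 is a zinc-finger transcription factor that transmits Hedgehog signals, and Hand2 is a basic helix-loop-helix factor that patterns the mandible and binds E-boxes. REST is a different zinc-finger protein, a repressor that binds a long element called RE1 and keeps neuronal genes silent in non-neuronal cells. The RE1 core is built from 2 parts, CAGCACC and GGACAG, that are separated by 2 bases of any kind. REST was not profiled in these samples, and the lists hold no expression values, so whether any of the genes was on or off in this tissue was not measured.

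Each of the 10 genes had exactly 1 Gli3 MNP peak with an RE1 core that matched at all 13 fixed letters. These 10 peaks held 15 exact cores on either strand, and they are printed here because they carry the resemblance to REST that the genes were chosen for. Each line gives 27 bases of mm10, read 5′ to 3′ on the strand named, with the 13 fixed letters in capitals.
Snap25, site 1, chr2:136714284-136714310, plus strand: ggagctCAGCACCctGGACAGgagtgc
Snap25, site 2, chr2:136714334-136714360, plus strand: acctttCAGCACCgcGGACAGcgatcc
Chgb, chr2:132781790-132781816, plus strand: ggatttCAGCACCccGGACAGctccta
Barhl1, site 1, chr2:28916185-28916211, plus strand: aggcctCAGCACCgcGGACAGcgacag
Barhl1, site 2, chr2:28916260-28916286, plus strand: ccccgcCAGCACCgtGGACAGcgccct
Xkr4, chr1:3670822-3670848, minus strand: tgatttCAGCACCgaGGACAGctccac
Xkr7, site 1, chr2:153032389-153032415, plus strand: cgccgtCAGCACCaaGGACAGcgacat
Xkr7, site 2, chr2:153032425-153032451, plus strand: cgccatCAGCACCaaGGACAGtgctgt
Vstm2l, site 1, chr2:157913271-157913297, minus strand: cagtttCAGCACCacGGACAGctcctc
Vstm2l, site 2, chr2:157913510-157913536, minus strand: agggttCAGCACCgtGGACAGatcccc
Cdh4, chr2:179193858-179193884, minus strand: gtgggtCAGCACCcgGGACAGcatggg
Lin28a, site 1, chr4:134020794-134020820, minus strand: cgctctCAGCACCctGGACAGagcaag
Lin28a, site 2, chr4:134020824-134020850, minus strand: atgtttCAGCACCagGGACAGagctac
Dab1, chr4:103875739-103875765, plus strand: tgtgatCAGCACCcaGGACAGctccag
Csmd2, chr4:128042810-128042836, plus strand: gtgcttCAGCACCatGGACAGgacacc

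The letters around the core, which the search did not use, were not all alike. A T came directly before the core in 14 of the 15 sites (93.3%), the exception being site 2 of Barhl1. The same T preceded 38 of the 61 exact cores under other Gli3 MNP peaks (62.3%) and 324 of the 544 exact cores of the genome that lay under no Gli3 MNP peak (59.6%). A C directly after the core was found in 9 of the 15 sites (60.0%), in 39 of the 61 (63.9%) and in 242 of the 544 (44.5%). The core lay on the strand of the gene in 10 sites and on the opposite strand in 5, which were those of Barhl1, Vstm2l and Cdh4.

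None of the 10 core peaks touched a Gli3 whole face peak, and 8 of the 10 touched a Hand2 peak. Over all Gli3 MNP peaks, 39.3% touched a whole face peak and 61.4% touched a Hand2 peak by at least 1 bp. Exact cores were rare in the list as a whole, in 56 of 5424 peaks or 1.03%, and 1.06% of all protein-coding genes had such a peak within 100 kb. The other 46 exact-core peaks, which lay at other genes, included 2 that touched a whole face peak (4.35%, 95% interval 1.20 to 14.5%) and 23 that touched a Hand2 peak (50%, 36.1 to 63.9%).

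The core peaks of 3 genes with roles at the membrane and in the secretory pathway lay in an intron. Snap25 encodes a SNARE protein that drives the fusion of synaptic vesicles. Its core peak covered chr2:136714120-136714473, 819 bp downstream of the nearest start site. The core nearest to the middle of this 354 bp peak was 0.5 bp from the midpoint, and the second core followed 50 bp later on the same strand. The nearest whole face peak was 373373 bp away, and no other Gli3 peak of either tissue fell in the Snap25 window.

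Chgb encodes chromogranin B, a protein of dense-core secretory granules. Its peak, chr2:132781672-132781985, lay 551 bp downstream of the start site, was 314 bp wide and held 1 core 25.5 bp from its midpoint. As at Snap25 there was a single Gli3 peak in the window, and the nearest whole face peak was 376264 bp away. Csmd2 encodes a large transmembrane protein with CUB and sushi domains. The Csmd2 peak, chr4:128042617-128042918, lay 54724 bp downstream of a start site and was 302 bp wide. It held 1 core, was 655212 bp from the nearest whole face peak and, unlike the peaks of Snap25 and Chgb, touched no Hand2 peak, the nearest one being 50044 bp away.

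Xkr4 and Xkr7 encode members of the XK-related family of membrane proteins, and both carried the core in a coding exon. At Xkr4, the peak chr1:3670650-3670965 lay 690 bp downstream of the start site, with 1 core 27.5 bp from its midpoint. It was the most isolated of the 10 core peaks, with no whole face peak within 2774446 bp. At Xkr7, the peak chr2:153032060-153032577 lay 467 bp downstream of the start site and held 2 cores with a step of 36 bp, a multiple of 3, that share the gap bases aa. Xkr7 had another Gli3 MNP peak, which held no core and touched a whole face peak.

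Among the developmental regulators, Barhl1 encodes a homeodomain transcription factor of the developing nervous system. The Barhl1 core peak, chr2:28915879-28916448, covered the 5′ UTR 248 bp downstream of a start site and held 2 cores with a step of 75 bp. The gene had 3 Gli3 MNP peaks and 2 whole face peaks, and both MNP peaks without a core touched a whole face peak. One of these, chr2:28839922-28840920, was a broad peak of 999 bp that lay 38 bp from the start site of Ddx31. The other, chr2:28974085-28974382, lay 57566 bp upstream of Barhl1, which was its nearest gene, and also touched a Hand2 peak.

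Lin28a encodes an RNA-binding protein that blocks maturation of let-7 microRNAs and is best known from stem and progenitor cells rather than from neurons. Its core peak, chr4:134020597-134021036, lay 1976 bp upstream of a start site and held 2 cores 30 bp apart. A second Gli3 MNP peak, chr4:134017768-134018271, lay 362 bp downstream of a start site, held no core and touched both a whole face peak and a Hand2 peak. The gap between the core peak and this whole face peak, chr4:134017943-134018178, was 2419 bp, so that at this gene a Gli3 peak shared by both lists and one of the MNP list alone stood side by side. Lin28a had 3 further whole face peaks, 26373 to 98338 bp from its start sites, each closer to the start of another gene and none touching a Gli3 MNP peak.

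Dab1 encodes the adaptor through which neurons respond to Reelin. The Dab1 core peak, chr4:103875655-103875887, was the narrowest of the 10 at 233 bp and lay in an intron 256106 bp downstream of the nearest start site. A whole face peak, chr4:103878887-103879103, lay 3000 bp away, also in an intron, touched a Hand2 peak and did not touch any Gli3 MNP peak. Here, 2 Gli3 peaks from different lists were thus neighbours without overlap, and of the 2 the MNP peak held the core.

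Cdh4 encodes R-cadherin, an adhesion molecule, and Vstm2l a small immunoglobulin-domain protein. The Vstm2l peak, chr2:157913064-157913779, was the widest at 716 bp, lay 1231 bp upstream of the start site and held 2 cores with a step of 239 bp. It was the single Gli3 peak in its window. Cdh4 was the exception in distance, since its core peak, chr2:179193613-179194049, lay 248600 bp upstream of the gene body and would be missed with a window of 100 kb. Another MNP peak without a core, chr2:179200568-179200873, lay 241710 bp upstream of Cdh4, and the remaining 3 MNP peaks of the Cdh4 window lay 201 to 381 bp from the start sites of Taf4, Ss18l1 and Osbpl2. No whole face peak fell within 300 kb of Cdh4, the nearest one beyond being 335.9 kb from the gene body.

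**Figure D1:**
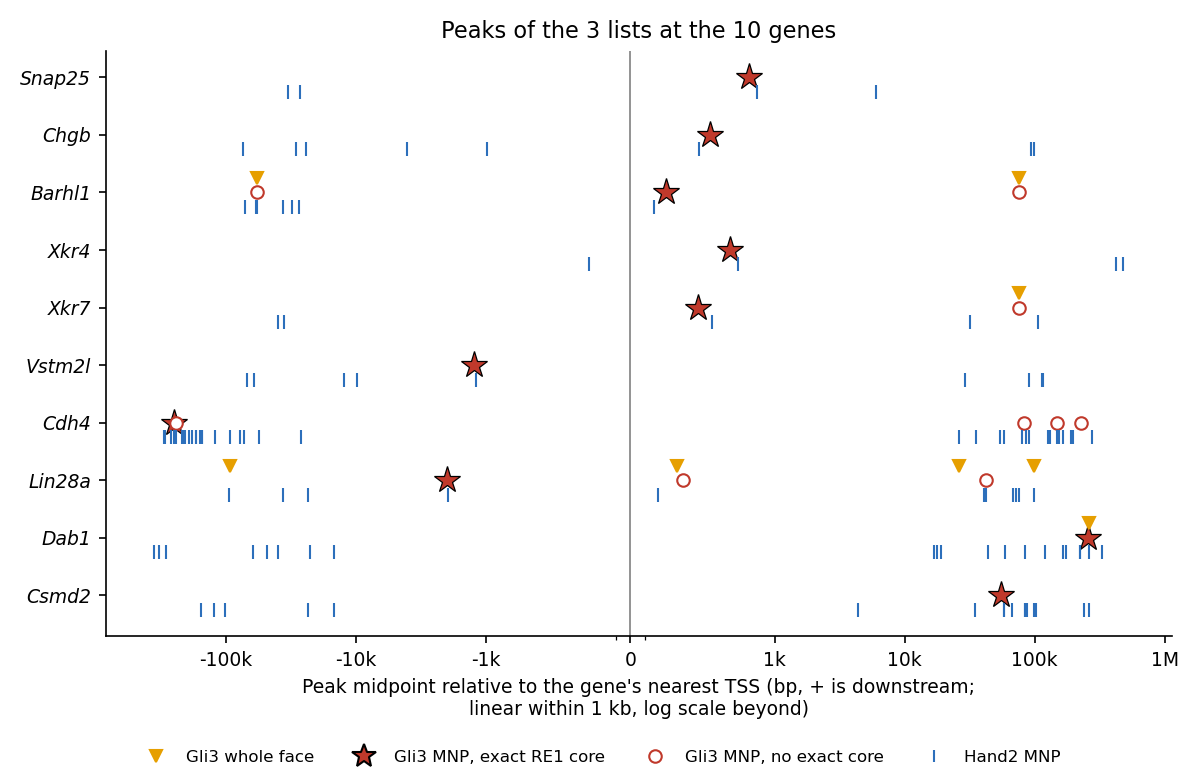
Midpoints of all peaks of the 3 lists in the windows of the 10 genes, by distance in bp from the gene's nearest start site (linear within 1 kb, log scale beyond). Each gene has 1 Gli3 MNP peak with an exact core (star), while whole face peaks (triangles) appear at 4 genes and never at a star; at Dab1 the triangle is 3000 bp from the star, closer than the log axis can separate.

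The Gli3 peaks of the windows as a whole were therefore not confined to the MNP list. The 10 windows held 19 Gli3 MNP peaks, 8 whole face peaks and 124 Hand2 peaks. A Gli3 MNP peak was present at all 10 genes, against 56.1% of all protein-coding genes, and a whole face peak at 4 (Barhl1, Xkr7, Lin28a and Dab1), against 46.1%. The remaining 6 genes had a Gli3 MNP peak and no whole face peak, as did 35.0% of the protein-coding genes with a Gli3 MNP peak. Among the 5975 genes with exactly 1 Gli3 MNP peak within 100 kb the share without a whole face peak was 46.4%, and 6 of the 10 genes had exactly 1. Of these 6, Dab1 alone also had a whole face peak. Cdh4 was counted in its window of 300 kb and is not among the 6. Within the 100 kb used for all genes, Cdh4 had exactly 1 Gli3 MNP peak, 77474 bp from the gene body, and no whole face peak. The windows include the gene body, which had a median of 49.5 kb for the 10 genes against 17.4 kb for all protein-coding genes. The shares of all genes thus come from windows that were mostly smaller.

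What was confined to the MNP list was the core peaks. Of the 19 MNP peaks, 4 touched a whole face peak, and all 4 were among the 9 peaks without a core. No core was found in these 9 peaks, nor in the 8 whole face peaks, even when 1 mismatch was allowed. The nearest start site belonged to another gene for 6 of the 9 MNP peaks without a core and for 5 of the 8 whole face peaks. All 10 core peaks were nearest to the gene they are listed with, which the choice of the genes by these peaks fixed. Just beyond the 100 kb limit, the closest peaks left out were an MNP peak 105.8 kb and a whole face peak 106.2 kb from Xkr7, an MNP peak 108.6 kb from Snap25 and a whole face peak 113.3 kb from Vstm2l. The whole face peak farthest inside the limit was 92.3 kb from Lin28a.

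The 2 Gli3 lists differ in more than tissue. Whole face peaks were narrower, with a median of 222 bp against 577 bp, and their entry names show calls against both the mock and the input, whereas the calling of the MNP list is described against input. Tissue and calling cannot be told apart in this comparison. The core peaks were 233 to 716 bp wide (median 395.5 bp). Within that width range, 1506 of 3158 Gli3 MNP peaks without an exact core touched a whole face peak (47.7%, 95% interval 46.0 to 49.4%), against 2 of 54 with one (3.70%, 1.02 to 12.5%). These 54 include the 10 core peaks by which the genes were chosen, whose own widths set the range. Over all widths, 2 of the other 46 exact-core peaks touched a whole face peak (4.35%, 1.20 to 14.5%).

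The intervals of peaks with and without an exact core lay apart for distal peaks and overlapped for promoter peaks, which is a description of the lists and not a test. Promoter peaks, here those within 1 kb of any protein-coding start site, made up 64.2% of the Gli3 MNP list, and 5 of the 10 core peaks (Snap25, Chgb, Barhl1, Xkr4 and Xkr7) belonged to them. Of the promoter peaks of the whole list, 0 of 11 with an exact core touched a whole face peak (95% interval 0 to 25.9%), against 739 of 3469 without one (21.3%, 20.0 to 22.7%), so that no difference was detectable with these 11 peaks. Of the distal peaks, 2 of 45 with an exact core touched one (4.44%, 1.23 to 14.8%), against 1389 of 1899 without (73.1%, 71.1 to 75.1%). These counts include the core peaks of the 10 genes. Without them, 0 of 6 promoter peaks and 2 of 40 distal peaks with an exact core (5%, 1.38 to 16.5%) touched a whole face peak.

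All 10 core peaks had been built from 1 entry of each replicate, as had 50.6% of the whole list. Among distal peaks of that kind, 1152 of 1478 without an exact core (77.9%) and 2 of 43 with one (4.65%) touched a whole face peak, so that the difference was as large within this class. The 43 include the distal core peaks of the 10 genes. Over promoter and distal peaks together, the share also fell stepwise as the best match to the core improved. It was 44.4% of MNP peaks whose best match had at least 4 mismatches, 33.2% with 3, 25.6% with 2, 18.5% with 1 and 3.57% with none. The last value includes the core peaks of the 10 genes, and without them it was 4.35% (2 of 46). These steps mix promoter and distal peaks, whose shares without an exact core were 21.3% and 73.1%, and take no account of peak width. Among distal peaks alone, the share was 5.06% with at most 1 mismatch and 4.44% with none, so that these 2 values were close.

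**Figure D2:**
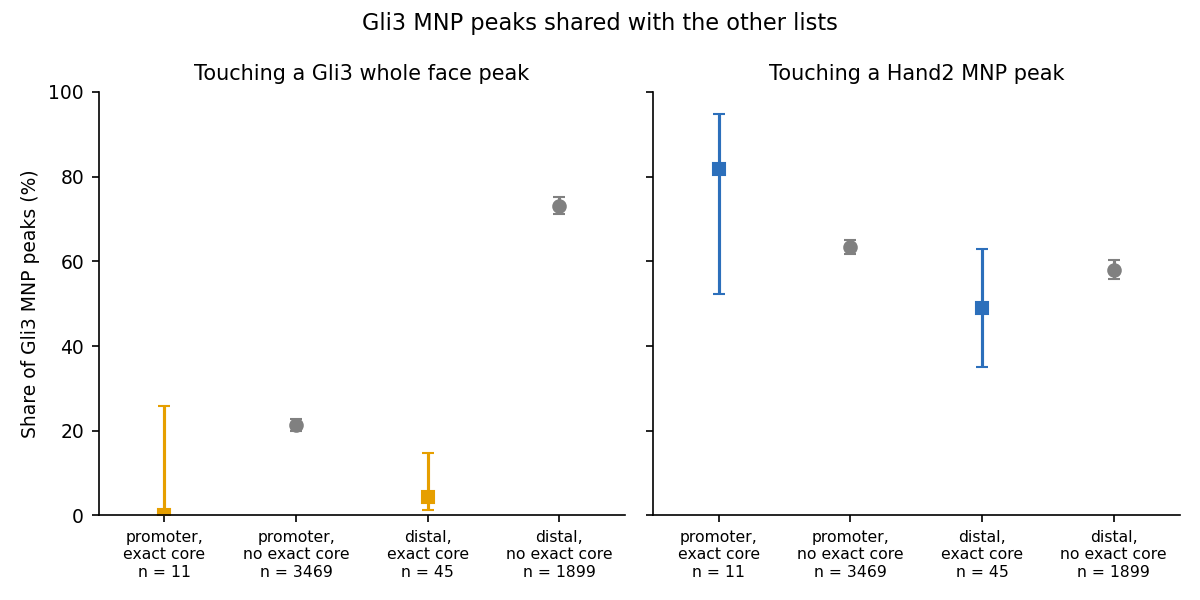
Share (%) of Gli3 MNP peaks that touched a Gli3 whole face peak (left) or a Hand2 MNP peak (right), for promoter peaks (within 1 kb of a start site) and distal peaks with and without an exact RE1 core. Points are shares, bars are 95% Wilson intervals and n counts peaks; distal core peaks lie at 4.44% for the whole face against 73.1% without a core, while for Hand2 the intervals with and without a core overlap.

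For Hand2, the intervals of peaks with and without a core overlapped. In the Gli3 MNP list, 31 of 56 peaks with an exact core (55.4%, 95% interval 42.4 to 67.6%) and 3302 of 5368 without one (61.5%, 60.2 to 62.8%) touched a Hand2 peak. Among promoter peaks, 9 of 11 with a core (81.8%, 52.3 to 94.9%) and 63.4% without one did so. Among distal peaks it was 22 of 45 with a core (48.9%, 35.0 to 63.0%) and 58.0% without one. Of the 10 genes, the peaks at Snap25, Chgb, Barhl1, Xkr4, Xkr7, Vstm2l, Cdh4 and Lin28a touched Hand2 peaks of 221 to 576 bp, and 13 of the 15 cores lay under a peak of both lists. The exceptions were Csmd2 and Dab1, whose core peak was 2898 bp from the nearest Hand2 peak. Whether both proteins bound the same DNA at these places was not tested.

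The Hand2 peaks at these 8 places were the only Hand2 peaks among the 124 of the windows that held an exact core. At 1 mismatch a core was also found in a Hand2 peak at Dab1, chr4:103945530-103946519, and in one at Csmd2, chr4:128248739-128249040, neither of which lay at the Gli3 core peak. The distance of the core from the midpoints of the Gli3 and Hand2 peaks differed between genes. The core was 0.5 to 101.5 bp from the Gli3 midpoint (median 31.0 bp) when the core closest to it was taken, and for 9 of the 10 genes it lay in the middle 200 bp of the peak. These peaks were 233 to 716 bp wide, so that the middle 200 bp made up much of the narrow ones. From the midpoint of the Hand2 peak, the cores of Snap25 lay 5.5 and 55.5 bp away in a peak of 254 bp. That of Cdh4 lay 65.5 bp away in 372 bp, and that of Xkr4 84.0 bp away in 291 bp. The farthest was the first core of Vstm2l, at 181.5 bp in a peak of 562 bp, while the second core of that peak was 57.5 bp from the midpoint.

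**Figure D3:**
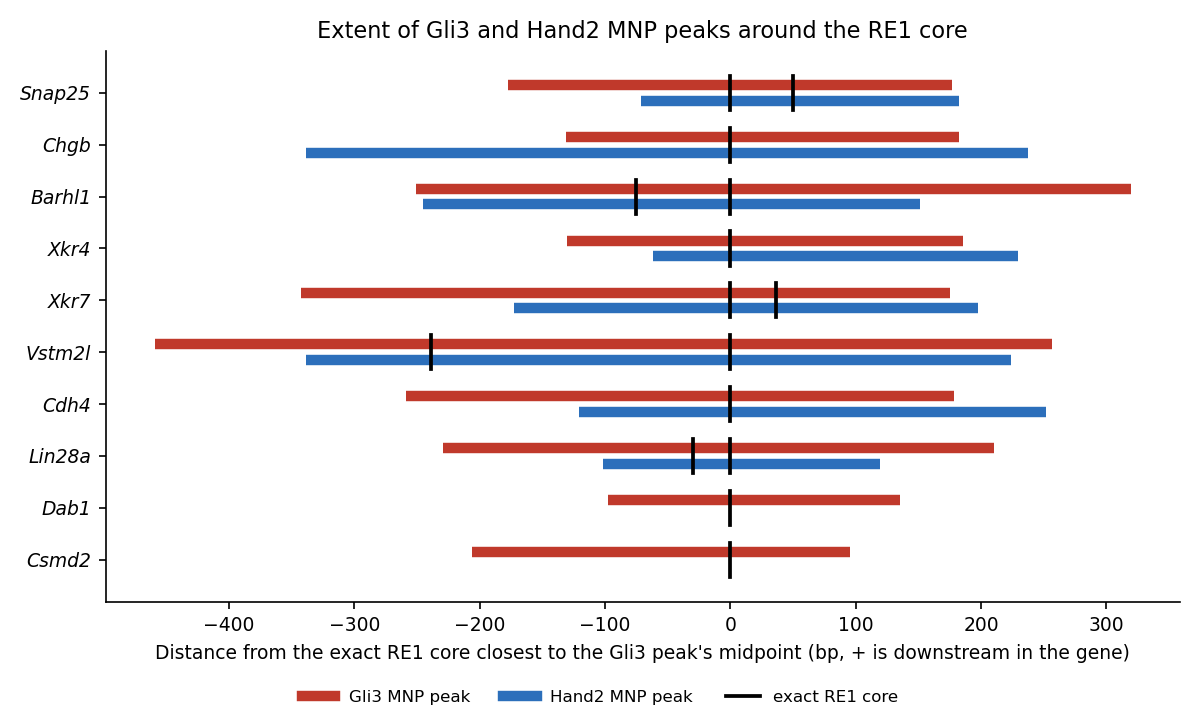
Extent in bp of the Gli3 MNP peak (red) and of the Hand2 MNP peak that touched it (blue) at each of the 10 genes, aligned on the exact RE1 core closest to the Gli3 midpoint and oriented with the gene; black lines mark all 15 exact cores. Both peaks cover the core at 8 genes, and Dab1 and Csmd2 have no Hand2 peak there.

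The motifs that Gli3 and Hand2 are known for were counted in the same peaks. The canonical Gli-binding motif GACCACCC, searched on both strands, was in none of the 10 core peaks, in none of the 9 other MNP peaks at these genes, in 1 of the other 46 exact-core peaks (2.17%, 95% interval 0.385 to 11.3%) and in 13.3% of all Gli3 MNP peaks. The divergent motif GACCTCCC was in 1 of the 10, the Cdh4 peak, in 4 of the other 46 exact-core peaks (8.70%) and in 6.60% of all. With 10 peaks, a count of 0 or 1 could not be told from these shares. The E-box CAGATG was in none of the 10 (95% interval 0 to 27.8%), in 13 of the other 46 exact-core peaks (28.3%) and in 27.2% of all Gli3 MNP peaks. It was also in none of the 8 Hand2 peaks at these places (0 to 32.4%), against 47.1% of all Hand2 peaks. These 8 peaks share sequence with the core peaks, so that the counts are not separate observations, and peak width was not matched. Absence of these letters says nothing on other forms of the motifs. Gli3 MNP peaks with GACCACCC and no exact core included 464 distal ones, of which 421 touched a whole face peak (90.7%, 95% interval 87.7 to 93.0%). Of the 259 promoter peaks of this kind, 156 did so (60.2%, 54.2 to 66.0%).

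As a share of peaks, the exact core was more frequent in the Gli3 MNP list as a whole than in the others. By count, the much longer Hand2 list held more such peaks. The core was found in 56 of 5424 Gli3 MNP peaks (1.03%, 95% interval 0.796 to 1.34%), in 4 of 5752 whole face peaks (0.0695%, 0.0270 to 0.179%) and in 78 of 59583 Hand2 peaks (0.131%, 0.105 to 0.163%). The 56 include the 10 peaks by which the genes were chosen. Peak widths differ between the lists, and with the search limited to the middle 200 bp the shares were 0.977%, 0.0522% and 0.107%. For comparison, the 300 bp promoter windows of RefSeq on GRCm38.p6 held it in 12 of 32851 cases (0.0365%). These windows ran from 250 bp before to 50 bp after a start site. Promoter windows for 5 of the 10 genes (Chgb, Barhl1, Xkr7, Lin28a and Dab1) were in that table and none held the core. The cores printed for these genes lay 139 bp or more downstream of the nearest start site or, at Lin28a, 1966 bp or more upstream. They were outside the reach of such windows, so that this absence says nothing on the core peaks.

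**Figure D4:**
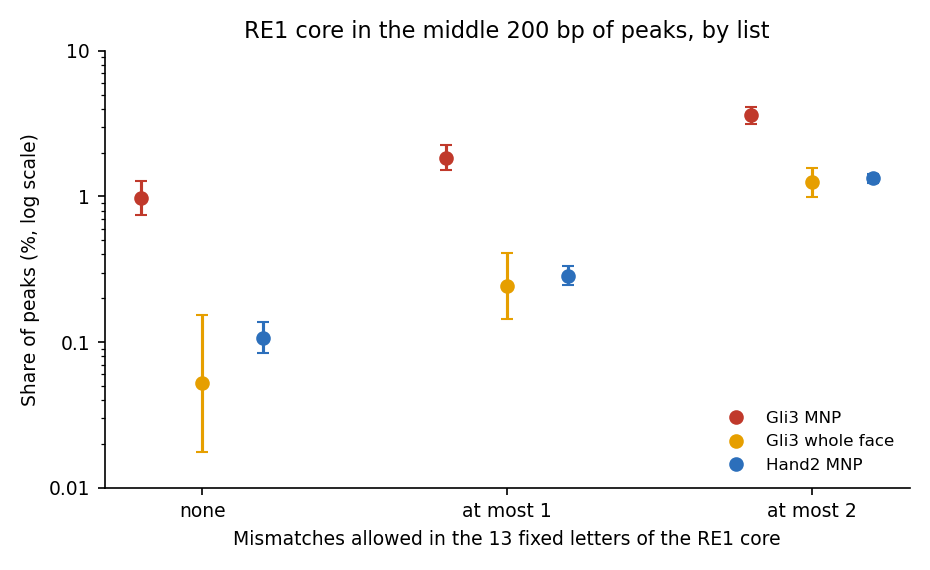
Share of peaks (%, log scale) of each list with the RE1 core in the middle 200 bp, with no, at most 1 or at most 2 mismatches in the 13 fixed letters. Bars are 95% Wilson intervals; with no mismatch the share is 0.977% for Gli3 MNP, 0.0522% for Gli3 whole face and 0.107% for Hand2 MNP, and the lists draw closer as mismatches are allowed.

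Counted from the genome, mm10 held 620 exact cores, of which 76 lay under a Gli3 MNP peak (12.3%, 95% interval 9.91 to 15.1%), 96 under a Hand2 peak (15.5%) and 4 under a whole face peak (0.645%). In the windows of the 10 genes there were 18, of which 15 lay under a Gli3 MNP peak and 3 under none, these being 1 in the Vstm2l window and 2 in the Cdh4 window. A pair of cores in 1 peak was found at 5 of the 10 genes (Snap25, Barhl1, Xkr7, Vstm2l and Lin28a). Peaks with more than 1 exact core numbered 13 of the other 46, and in all 18 the cores lay on the same strand. The 10 genes were on 3 chromosomes, with 6 on chromosome 2, 3 on chromosome 4 and 1 on chromosome 1, whereas the 56 exact-core peaks were spread over 15.

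Of 19 paralogs of the 10 genes, 7 had a Gli3 MNP peak (36.8%, against 56.1% of all genes) and 1, Xkr6, an exact-core peak, which is 5.26% against the 1.06% of all genes. Xkr6, another XK-related gene, had 3 MNP peaks, 2 of them with exact cores, and no whole face peak. The nearer of these, chr14:63681427-63681896, lay 75159 bp from the start site, held 3 cores and touched a Hand2 peak. Snap47, a relative of Snap25 and the paralog with the most Gli3 MNP peaks, had 4 of them and 3 whole face peaks, and no core.

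Among 28 neuronal genes listed as known carriers of RE1 elements, 22 had a Gli3 MNP peak (78.6%, against 56.1% of all protein-coding genes) and 14 a whole face peak (50%, against 46.1%). An exact-core peak was present at 1 of them (3.57%, against 1.06%), L1cam, which encodes a neural adhesion molecule. That peak, chrX:73869364-73869788, lay 228 bp from the start site, held 2 cores, touched a Hand2 peak and touched no whole face peak. Bsn, which encodes the presynaptic protein bassoon, had a peak with 1 mismatch, but this lay 73188 bp from its start site and nearest to Dag1.

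Of the 15 genes of the REST machinery, which encode REST itself and its corepressors, 13 had a Gli3 MNP peak (86.7%, against 56.1% of all genes) and 0 had a core peak, where 2.16% of all genes had one with at most 1 mismatch. The gene Rest had 1 Gli3 MNP peak, 1 whole face peak and 12 Hand2 peaks. Ehmt2, which encodes a histone H3 lysine methyltransferase, had 7 MNP peaks, the most of this list.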

How the data were processed

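Peak lists were made by the authors from anti-FLAG ChIP-seq of 2 replicates per group. Reads were aligned to mm10 with BWA and the replicates' peaks were merged with bedtools. MACS is named for the MNP calls; for the whole face list the caller was not given in the sources used here. The deposited columns used are start and end positions in bp, with no score, count or depth. The members and lists were chosen with earlier results of these data known.

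Peaks on chromosomes 1 to 19, X and Y were used, which left out 3 mitochondrial Gli3 MNP peaks. They were compared with GENCODE vM21 protein-coding transcripts (start sites, gene bodies), and peaks touched when they shared at least 1 bp. The RE1 core was searched on both strands of mm10, and shares were given 95% Wilson intervals. No test was run, because each list merges its replicates. The search and the overlap counts were tested on simulated data. Alternatives covered the window, the overlap, the mismatches and promoter peaks. The genes named were all 10 with every Gli3 peak, list genes with a core peak or the most MNP peaks, and the nearest genes of the 10 exact-core peaks with the most central core. Of the neuronal list, the gene with the most MNP peaks is not reported here. Python 3.11.15, numpy 2.4.6, scipy 1.17.1 and matplotlib 3.10.9 were used.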

Additional observations from a re-analysis of the deposited data

How the results depend on the processing

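The number of genes with a Gli3 whole face peak was 4 with the windows stated and 2 within 25 kb, within 50 kb or in the gene body alone, and it rose to 6 with 300 kb for all genes. Of the Gli3 MNP peaks at the 10 genes, 4 touched a whole face peak by 1 bp, against 1 when at least 50% of the peak had to be covered and 1 among peaks at least as wide as the list median. With at most 1 mismatch, the RE1 core was in 2.23% of Gli3 MNP peaks, against 1.03% with none, 7.26% with at most 2 and 1.84% in the middle 200 bp. Of core peaks at 1 mismatch, 11.6% touched a whole face peak, which became 3.57% with none, 21.3% with at most 2, 5.79% at 50% coverage and 5.06% without promoter peaks. For Hand2 the share was 53.7%, and 66.2% with at most 2 mismatches or 43.8% at 50% coverage. A looser match or a stricter overlap changes these counts by construction. The other 24 alternative values, that count of 6 included, lay within 1.5 times the count reported or within its interval. All 10 genes kept a core peak with 0, 1 or 2 mismatches. Leaving out a replicate was not possible, since each list holds merged peaks. No paired analysis was possible because no result comes from a test over samples. Unknown depth limits every absence from a list.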

Other observations

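The 10 Gli3 MNP peaks whose exact core lay closest to the midpoint included Snap25 and 9 peaks at other genes. By nearest start site these were Cd300ld3, Olfm4, Fbll1, Asb18, Prmt8, Kcnd3, Sez6l, Nptx2 and Erich1, with the core 0.5 to 8.0 bp from the midpoint. Their distance from that start site ranged from 185 bp at Fbll1 to 256979 bp at Olfm4. The Asb18 peak, chr1:90028409-90028705, held 3 exact cores in 297 bp. The Prmt8 peak, chr6:127767831-127768149, was the only one of these 10 that touched a whole face peak.

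Whole face peaks with an exact core numbered 4, nearest to Cdkn2b, Atp2b2, Wnt5b and Prmt8. Those at Cdkn2b (chr4:89313531-89313733) and Prmt8 (chr6:127767837-127768041) touched a Gli3 MNP peak, and the other 2 did not. None of these 4 genes is among the 10 described in the report, and they were named after their values were seen.

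Hand2 peaks with an exact core numbered 78, and 47 of them touched no Gli3 MNP peak. Conversely, 23 of the 46 exact-core Gli3 MNP peaks away from the 10 genes touched no Hand2 peak.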
